A study of Mus musculus with 4 samples.

Results

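Interferon response genes are genes that cells switch on when interferons bind their receptors. The set described here was a named list of 37 gene symbols, chosen by name and not by measured values, and 36 of them matched a feature in the deposited count tables, which hold 32285 features in all. Mx1 matched none and was not analysed here. UMIs, the molecular tags that each stand for 1 captured transcript, were summed for each of these genes over all cells of a class in each library, and Ndp knockout libraries were compared with wild-type libraries class by class.

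Type I interferons signal through the Ifnar1 and Ifnar2 receptor chains and type II interferon through Ifngr1 and Ifngr2. The attached Janus kinases activate transcription factors that enter the nucleus and bind short promoter elements. The induced genes include sensors of foreign nucleic acid, enzymes that degrade or block viral RNA, membrane proteins that hold back virus entry or release, and GTPases that attack the vacuoles of intracellular microbes. Many of them are also expressed at a low tonic level without infection, and their resting level differs between cell types.

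The cells came from the subdural meninges of the cerebellum, the thin membranes and vessels under the dura, and were profiled with the 10x Genomics Chromium single-cell 3' kit. All mice were Neurod2-SmoA1+/- on a C57/BL6 background, so they carried a transgene in which the Neurod2 promoter, active in the granule neuron lineage, drives an activated form of the Hedgehog signal transducer Smoothened. The groups were NdpWT; Neurod2-SmoA1+/- and NdpKO; Neurod2-SmoA1+/-, with 2 libraries each, and Ndp encodes Norrin, a secreted ligand that activates beta-catenin signalling in endothelial cells. Each library pooled 5 cerebella, from 3 litters per run in 4 runs, so the spread between libraries is that between pools. The labels give the age as 6 to 8 days after birth in the sample fields and as 7 to 9 days in the protocol.

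Total depth was between 114363848 and 125981161 UMIs per library, and 5599 to 12561 cells per library passed the filters. NdpKO library 1 stood apart: 44.1% of its barcodes passed, against 64.8% to 67.0% in the others, and 21.8% of its barcodes exceeded the limit on mitochondrial UMIs, against 7.58% to 10.4%. The scores of a doublet caller marked 1.70% to 2.59% of cells, below the 10.3% to 15.3% expected from the number of barcodes, so doublets remain. Ndp itself was counted at 2.07 and 1.35 CPM (UMIs scaled to a total of 1000000 per sum) over all cells in NdpWT libraries 1 and 2, and at 0.411 and 0.470 CPM in NdpKO libraries 1 and 2. Pairs of libraries shared 48 to 98 cell barcodes. The endothelial class held 272, 1085, 314 and 526 cells in NdpWT 1, NdpWT 2, NdpKO 1 and NdpKO 2, which is the order of all values below, and the monocyte or dendritic class held 82, 136, 109 and 212.

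To show what the members have in common in sequence, RefSeq promoter windows on GRCm38.p6 (250 bases before to 50 bases after each start site) were found for 27 of the 36 members. The core of the interferon-stimulated response element, searched as GAAANNGAAA on both strands, was present in a window of 17 of these 27 members (63.0%) and of 3.99% of the 27025 genes with windows. The core of the gamma-activated site, searched as TTCNNNGAA, which reads the same on both strands, was in 9 of the 27 (33.3%) and in 9.55% of all genes. A match gives the presence of these letters and not binding. The 250 bases before the start site are shown for 4 members, on the gene's own strand from 5′ to 3′, with response element matches in capitals. Ifi203 had 2 windows, and the one shown was picked by its number of matches. Ifi203 (chr1:173942493-173942742, minus strand) and Bst2 (chr8:71537473-71537722, minus strand) were chosen as genes that rose in endothelium, Ifit3 (chr19:34583279-34583528, plus strand) as a member of the Ifit family, and Ifitm1 (chr7:140967826-140968075, plus strand) as the gene that fell in mural cells. The match of Ifi203 begins 35 bases before the start site, those of Bst2 overlap and begin 130 and 124 bases before it, those of Ifit3 begin 156 and 122 bases before it, and these letters are not in the Ifitm1 window.
Ifi203: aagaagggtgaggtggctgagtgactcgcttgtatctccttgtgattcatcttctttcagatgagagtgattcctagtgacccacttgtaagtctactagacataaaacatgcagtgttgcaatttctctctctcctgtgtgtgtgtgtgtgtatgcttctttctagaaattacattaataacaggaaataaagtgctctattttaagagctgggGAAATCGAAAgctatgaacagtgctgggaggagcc
Bst2: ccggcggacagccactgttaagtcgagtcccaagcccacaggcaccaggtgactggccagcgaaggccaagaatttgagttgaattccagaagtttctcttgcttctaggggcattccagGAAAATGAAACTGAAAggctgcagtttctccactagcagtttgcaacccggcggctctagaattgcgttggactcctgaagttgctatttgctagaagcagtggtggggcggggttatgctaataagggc
Ifit3: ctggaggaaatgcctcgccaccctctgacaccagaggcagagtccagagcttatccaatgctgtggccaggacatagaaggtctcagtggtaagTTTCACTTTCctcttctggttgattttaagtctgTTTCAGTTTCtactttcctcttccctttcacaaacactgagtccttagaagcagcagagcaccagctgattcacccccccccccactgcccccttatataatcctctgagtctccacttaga
Ifitm1: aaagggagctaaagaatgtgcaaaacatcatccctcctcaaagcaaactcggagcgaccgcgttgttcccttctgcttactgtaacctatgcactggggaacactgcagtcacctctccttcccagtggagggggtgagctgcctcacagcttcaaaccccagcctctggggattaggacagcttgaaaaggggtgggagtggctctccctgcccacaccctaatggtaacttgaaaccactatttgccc

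In endothelial cells, interferon response genes were higher in the Ndp knockout almost throughout the list, and 3 of them rose: Ifi203, Iigp1 and Bst2. Of the 36 members, 34 passed the filter on low counts, 31 of them with enough counts in both NdpWT libraries, and 32 of the 34 had a higher fitted level in the knockout. The median log2 change was 0.45, against -0.0034 over all genes tested, of which 49.5% were higher. In 24 of the 34, both NdpKO libraries lay above both NdpWT libraries, and in 0 they lay below, while 21.2% of the 12675 genes tested lay above in that way. Over the 31 with enough counts in both NdpWT libraries, 22 lay above and the median was also 0.45. At an adjusted p under 0.05 (edgeR's quasi-likelihood test, Benjamini-Hochberg), 3 members rose and 0 fell, and 2.23% of all genes were called in either direction.

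Ifi203, a PYHIN-family protein of the kind that binds DNA (chr1:173920407-173942672), was at 25.4, 21.5, 59.8 and 80.8 CPM in NdpWT 1, NdpWT 2, NdpKO 1 and NdpKO 2. Both knockout libraries lay above both wild-type libraries, and the log2 change was 1.60 ± 0.19 (SE, n = 2 and 2 libraries, edgeR adjusted p = 0.000953). Iigp1, an immunity-related GTPase (chr18:60376027-60392634), was at 8.88, 14.1, 26.0 and 35.9 CPM, with no overlap between genotypes (log2 change 1.35 ± 0.25, edgeR adjusted p = 0.0202). Bst2, tetherin, which holds budding virus particles at the cell surface (chr8:71534255-71537456), was at 169, 184, 275 and 298 CPM, again without overlap (log2 change 0.70 ± 0.13, edgeR adjusted p = 0.0202). Without NdpWT library 1, Bst2 had an adjusted p of 0.0714 and 2 members were called, and without NdpWT library 2 and without NdpKO library 1 the calls numbered 7 and 5.

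**Figure D1:**
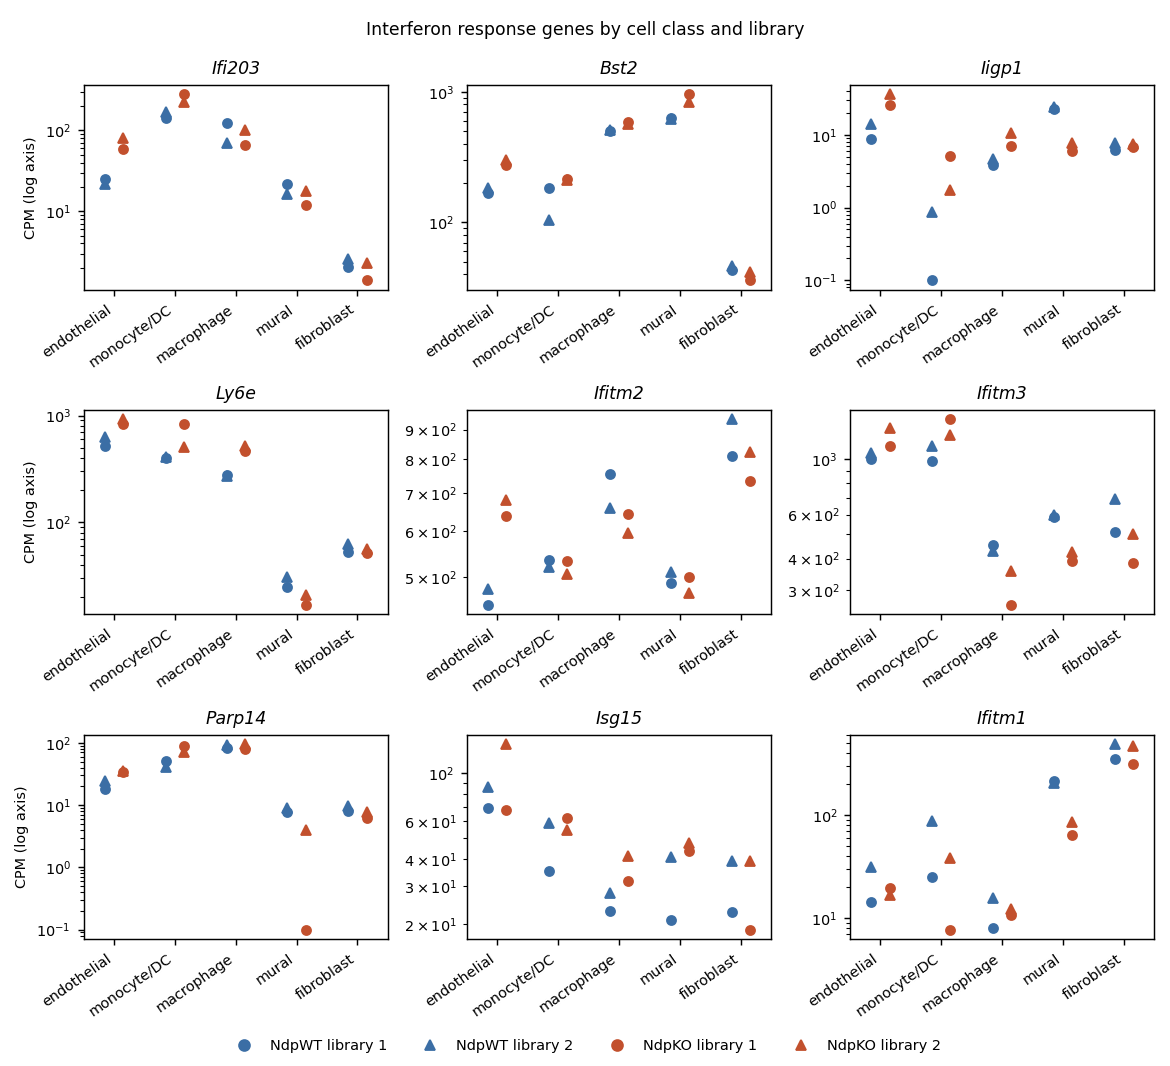
CPM of 9 interferon response genes (log axis) in 5 cell classes, 1 point for each library, blue for NdpWT and orange for NdpKO; a library with 0 UMIs is drawn at 0.1. In endothelium the Ifi203 points run from 21.5 to 80.8 CPM with the NdpKO points on top, and in mural cells the NdpKO points of Ifitm1, at 63.9 and 86.4 CPM, lie below the NdpWT points.

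The membrane restriction factors had the most UMIs in endothelium. Ifitm3, which with its relatives blocks the fusion of incoming virus, was at 996, 1062, 1130 and 1333 CPM, a difference of log2 0.26 ± 0.15 that did not pass the test. Ly6e, a surface protein that restricts coronavirus fusion, was at 519, 634, 841 and 925 CPM (log2 0.61 ± 0.15, edgeR adjusted p = 0.0745). Ifitm2 was at 448, 477, 638 and 680 CPM (log2 0.51 ± 0.14, edgeR adjusted p = 0.0960). For both genes the genotypes did not overlap although the threshold was missed. Ifitm1 was the exception of the group, at 14.3, 31.1, 19.7 and 16.7 CPM with the NdpKO values inside the NdpWT range.

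Among the other endothelial members with the lowest p-values, Parp14, an ADP-ribosyltransferase, was at 18.4, 24.3, 33.9 and 35.3 CPM (log2 0.66 ± 0.18). Dhx58, a regulator of the RNA sensor family, was at 1.90, 2.36, 5.33 and 4.97 CPM. Xaf1, a pro-apoptotic protein, was at 39.0, 33.3, 43.8 and 54.3 CPM. All 3 were without overlap and had adjusted p-values of 0.107, 0.197 and 0.268 in the same edgeR fit. Rtp4, a chaperone of receptors, was at 10.5, 17.2, 21.0 and 24.2 CPM, and Trim30a, a regulator of inflammatory signalling, at 25.7, 24.0, 30.5 and 37.1 CPM, again without overlap and without a call. By contrast, Isg15, a ubiquitin-like modifier and a widely used marker of the response, overlapped between genotypes at 68.8, 86.1, 67.5 and 137 CPM, and Gbp7 was flat at 70.1, 72.5, 67.7 and 75.3 CPM.

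By role, the endothelial differences were spread over the list. All 4 signalling and transcription factors (Irf1, Irf7, Irf9 and Stat2), all 4 Ifit genes, both of Isg15 and Usp18, the 3 tested antiviral enzymes, the 5 tested GTPases and all 9 other induced genes were higher, with 0, 0, 0, 0, 1 and 1 calls. Of the 2 tested nucleic acid sensors 1 was higher, with 0 calls. Of the 5 membrane restriction factors 4 were higher, with 1 call. The lower members were Ifih1, a sensor (log2 -0.085), and Ifitm1 (log2 -0.39). The median log2 change was 0.24 for the signalling factors, 0.77 for the Ifit family and 0.45 for the GTPases. Zbp1 and Oas1a were below the filter. A sum over a class does not separate more cells with a transcript from more RNA per cell.

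Marker lists of other classes were also summed in the endothelial class. The fibroblast list was higher in both NdpKO libraries, at 2892, 3735, 6322 and 5224 CPM. Most of it was Mgp, at 2159, 2384, 4230 and 3843 CPM, a gene of a matrix protein. The other 15 genes of the list summed to 733, 1351, 2092 and 1381 CPM. The monocyte or dendritic list was at 71.7, 55.2, 118 and 75.9 CPM, higher in both NdpKO libraries, and the macrophage list, at 542, 457, 469 and 394 CPM, overlapped between genotypes. Fibroblasts themselves held 1.40 to 2.60 CPM of Ifi203, 36.1 to 46.2 CPM of Bst2 and 52.4 to 62.9 CPM of Ly6e, less than endothelium in every library, whereas their Ifitm2, at 733 to 938 CPM, exceeded the endothelial level. When endothelial cells with 3 or more UMIs of the macrophage list were left out, 123, 595, 143 and 315 cells remained. Ifi203 kept its call (log2 1.47), and Bst2 (0.76, edgeR adjusted p = 0.0519) and Iigp1 (1.28, adjusted p = 0.0682) missed the threshold, so 1 call was left. With all endothelial cells the log2 changes of Bst2 and Iigp1 were 0.70 and 1.35. Calls over all genes went from 283 of 12675 to 69 of 10021. The part of the lower cell number in the lost calls was not tested. The part of the fibroblast and monocyte or dendritic lists in these values was not tested. The granule neuron lineage held 51.0, 55.4, 82.8 and 97.7 CPM of Ifi203, and its marker list summed to 354, 323, 200 and 314 CPM in endothelium, against 6660, 4261, 6250 and 6058 CPM in the lineage itself.

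**Figure D2:**
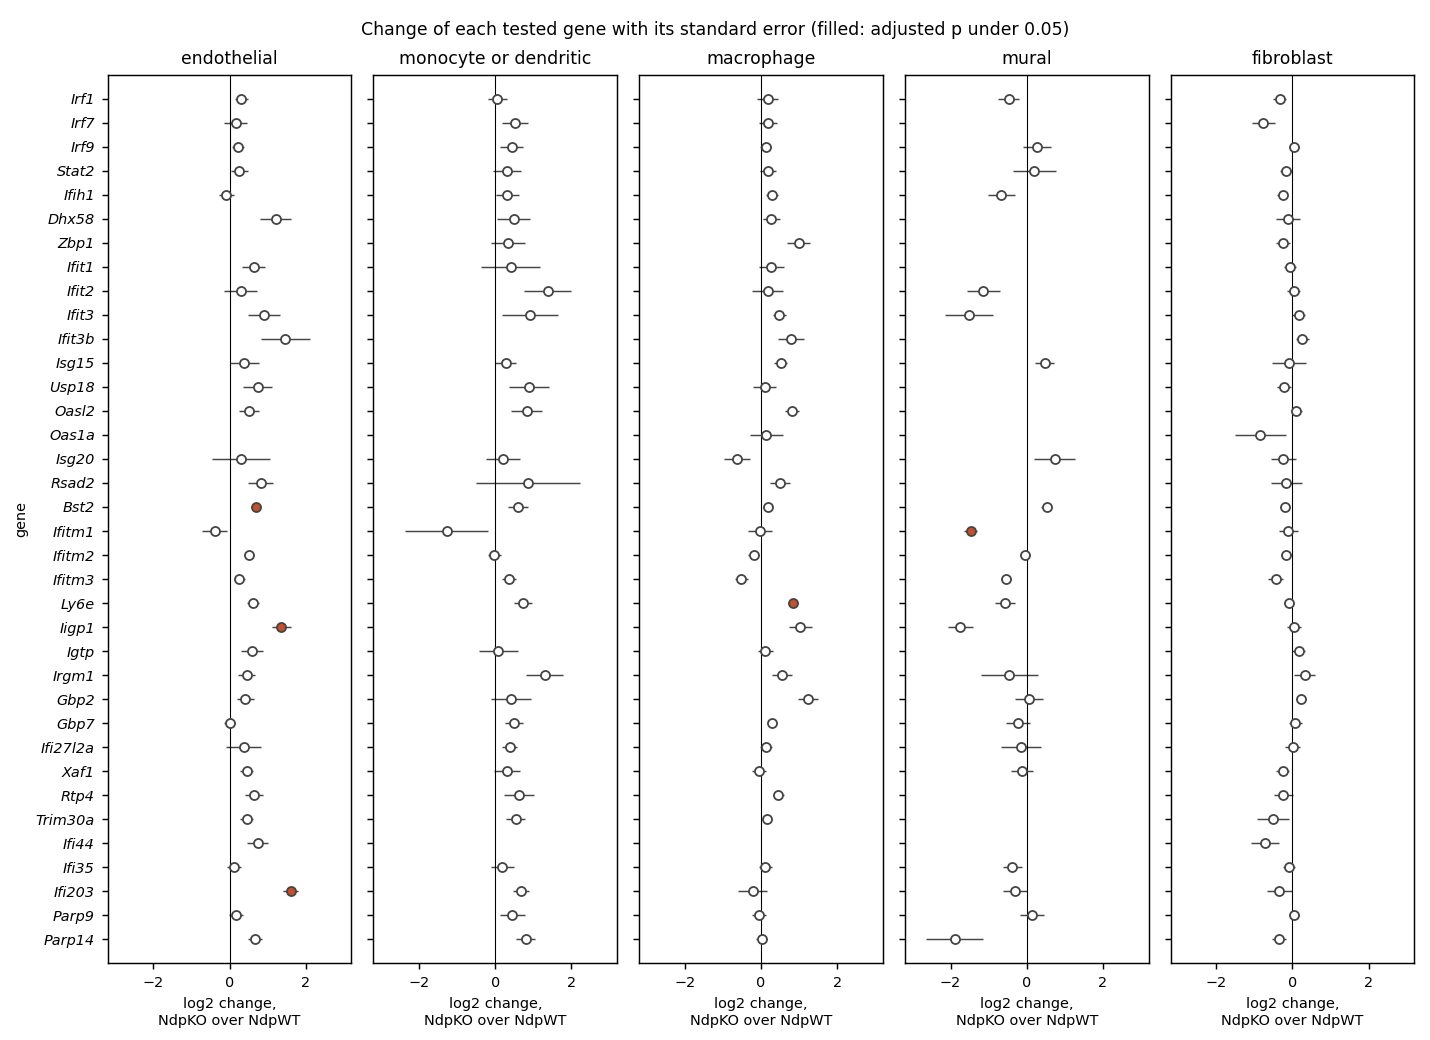
Log2 change of NdpKO over NdpWT (horizontal axis) for each tested interferon response gene (rows) in 5 cell classes, with standard errors as bars; filled points have an edgeR adjusted p under 0.05. The endothelial and monocyte or dendritic points lie mostly to the right of 0, with medians of 0.45 and 0.44, and the mural points mostly to the left, with a median of -0.30.

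The endothelial class was made of 2 clusters, and 6 of 33 tested members rose in 1 of them, while 0 of 32 passed the test in the other. A cluster led by Cldn5, Ctla2a, Clec14a and Kdr held 204, 780, 174 and 344 cells. The other was led by Cldn5, Eln, Fbln5 and Gkn3, genes of elastic vessel walls and arterial endothelium, and held 68, 305, 140 and 182 cells. The Eln and Fbln5 cluster made up 25.0% and 28.1% of endothelial cells in NdpWT and 44.6% and 34.6% in NdpKO. The clusters were defined from all variable genes, the members included, and the comparison between them was added after the values had been seen.

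In the Cldn5 and Ctla2a cluster the 6 that rose were Ifi203, Iigp1, Bst2, Ifitm2, Ly6e and Parp14. In this cluster 3.15% of 11438 genes were called. Ifi203 went from 8.87 and 6.20 CPM in NdpWT to 43.6 and 69.2 CPM in NdpKO (log2 change 2.99 ± 0.29, edgeR adjusted p = 0.000391). Iigp1 went from 7.10 and 10.9 to 33.2 and 48.4 CPM (2.10 ± 0.27), and Bst2 from 130 and 157 to 295 and 310 CPM (1.07 ± 0.15). Both were free of overlap and larger than in the whole class. Ifitm2 was at 187, 252, 413 and 455 CPM (log2 0.98 ± 0.16), Ly6e at 430, 539, 793 and 866 CPM (0.77 ± 0.15) and Parp14 at 13.8, 17.5, 28.1 and 32.1 CPM (0.91 ± 0.22, edgeR adjusted p = 0.0485). Of the 33 members tested there, 29 had enough counts in both NdpWT libraries; the median log2 change over these 29 was 0.65, and in 22 of them both NdpKO libraries lay above both NdpWT libraries, against 21.1% of all genes in that cluster.

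In the Eln and Fbln5 cluster Bst2, Ifitm2, Iigp1 and Ifi203 were higher in the wild type than in the other cluster. Bst2 was at 264, 252, 264 and 282 CPM, with NdpWT 1 and NdpKO 1 level. Iigp1 was at 13.1, 22.3, 19.1 and 17.4 CPM, with overlap between genotypes. Ifitm2 was at 1079, 1057, 904 and 1024 CPM (log2 -0.15), lower in both NdpKO libraries without a call. Ifi203 was at 65.4, 61.1, 79.3 and 98.9 CPM (log2 0.50 ± 0.19), higher in both NdpKO libraries without a call. Of 32 members tested, 20 were higher, the median log2 change was 0.08, and in 5 both NdpKO libraries lay above both NdpWT libraries, against 16% of genes. edgeR called 0 members and 0% of 10921 genes there, with 1 member and 3.72% of all genes at an unadjusted p under 0.05. The summed level of the 36 members was 1648 and 2142 CPM in NdpWT and 2875 and 3271 CPM in NdpKO in the Cldn5 and Ctla2a cluster, and 5114, 5160, 4461 and 5451 CPM in the Eln and Fbln5 cluster. The larger share of the Eln and Fbln5 cluster in NdpKO thus also enters the member levels of the whole endothelial class. Its part in them was not tested.

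The difference of genotype effect between the clusters was tested with the library as a block. The effect was larger in the Cldn5 and Ctla2a cluster for 6 members: Ifi203 by log2 2.46 ± 0.25 (edgeR adjusted p = 0.00102), Iigp1 by 2.12, Ifitm2 by 1.13, Isg15 by 0.99, Bst2 by 0.97 and Ly6e by 0.49 (adjusted p of the other 5 between 0.00386 and 0.0315). Ifi27l2a differed the other way by log2 -3.13 (edgeR adjusted p = 0.0274), at 3.99, 8.22, 0.948 and 2.97 CPM in the Cldn5 and Ctla2a cluster and at 2.18, 9.71, 11.3 and 24.5 CPM in the Eln and Fbln5 cluster. Among all 11834 genes tested, 0.913% were called. The calls fell from 7 to 2 without NdpWT library 1 and to 3 without NdpWT library 2. The fibroblast list summed to 516, 1147, 1062 and 1394 CPM in the Cldn5 and Ctla2a cluster and to 8782, 10420, 12100 and 10835 CPM in the Eln and Fbln5 cluster, where the endothelial list summed to 12085, 14058, 12399 and 13626 CPM. Mgp was at 103, 212, 156 and 490 CPM in the first and at 7257, 7995, 8706 and 8756 CPM in the second, so that the larger share of the second in NdpKO moved with the Mgp of the whole class. Without Mgp the list summed to 413, 935, 907 and 904 CPM and to 1526, 2425, 3394 and 2079 CPM. The macrophage list summed to 673, 481, 418 and 338 CPM and to 215, 394, 525 and 476 CPM in these clusters. It was thus lower in both NdpKO libraries in the first and higher in both in the second, as was Ifi27l2a. The mean level of Ifi27l2a over the libraries was 495 CPM in monocyte or dendritic cells and 307 CPM in macrophages, against 7.38 CPM in the endothelial class. The part of these lists in the member values was not tested.

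**Figure D3:**
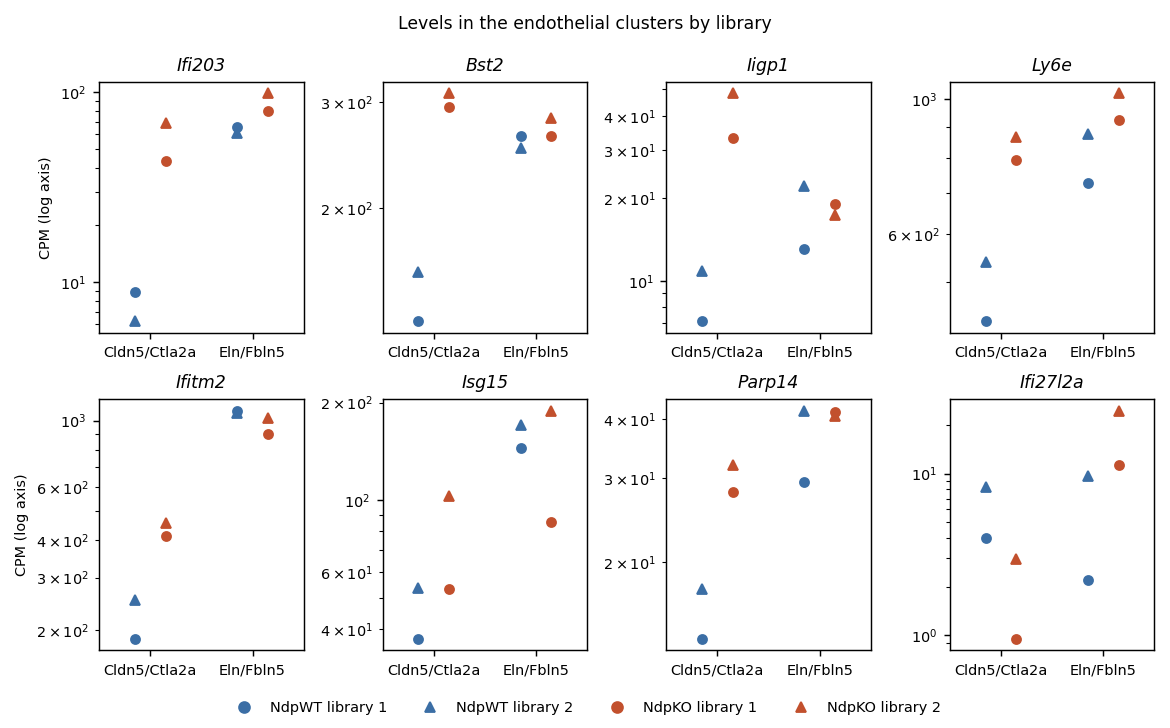
CPM (log axis) of 8 interferon response genes in the endothelial clusters led by Cldn5 and Ctla2a and by Eln and Fbln5, 1 point for each library. For Bst2 the Cldn5 and Ctla2a points go from 130 and 157 CPM in NdpWT to 295 and 310 CPM in NdpKO, beside 252 to 282 CPM in the Eln and Fbln5 cluster.

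In monocyte or dendritic cells most members were also higher in the knockout, but 0 passed the test. Of 32 members tested, 25 with enough counts in both NdpWT libraries, 30 were higher, with a median log2 change of 0.44 against -0.0011 over all genes. In 18, both NdpKO libraries lay above both NdpWT libraries, and 15.9% of the 9193 genes tested did so. Over the 25, 16 did so and the median was 0.43. edgeR called 0% of all genes in this class, the smallest of the 5 by cell number. An unadjusted p under 0.05 was found for 7 of the 32 members and for 4.05% of all genes tested. DESeq2 called 0 members as well.

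The genes with the lowest p-values there were partly those of endothelium. Ifi203 was at 144, 168, 278 and 222 CPM (log2 0.68 ± 0.20), Parp14 at 51.1, 41.5, 87.9 and 72.0 CPM (0.80 ± 0.24) and Ly6e at 397, 412, 833 and 511 CPM (0.73 ± 0.23). Each was free of overlap, and the edgeR adjusted p-values ran from 0.993 to 0.999. Irgm1, a GTPase, was at 10.5, 10.4, 37.2 and 15.7 CPM, and Bst2 at 183, 104, 216 and 212 CPM. Trim30a was at 56.3, 83.9, 106 and 99.9 CPM and Ifit2, which binds viral RNA, at 5.24, 7.79, 26.9 and 9.16 CPM. For Irgm1, Ifit2 and Ly6e, NdpKO library 1 stood well above NdpKO library 2. Oasl2 was at 10.5, 13.8, 27.6 and 17.0 CPM, Ifi27l2a at 380, 479, 533 and 587 CPM and Gbp7 at 39.3, 57.1, 69.3 and 68.5 CPM, all without overlap. Ifitm3, the member with the most UMIs in this class, was at 981, 1125, 1444 and 1243 CPM and Ifitm2 was level at 535, 521, 534 and 507 CPM. Ifitm1 lay the other way, at 24.9, 86.5, 7.70 and 38.0 CPM with overlap (log2 -1.27 ± 1.09). Without NdpKO library 2 the calls numbered 6, of which 5 were higher and 1, Ifitm1, was lower.

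The markers of this class also varied between libraries. Over all genes tested in the class, 15.9% were higher in both NdpKO libraries and 15.8% were lower in both. Of the 16 genes of its list, 1 was higher in both NdpKO libraries, 3 were lower in both, and 12 overlapped, so the list was not set apart from other genes. Ccr2, the chemokine receptor of monocytes, was the higher one, at 682, 761, 1228 and 1078 CPM. The lower ones were Itgax at 46.0, 48.8, 30.4 and 23.0 CPM, Zbtb46, a transcription factor of dendritic cells, at 10.2, 11.1, 5.69 and 7.37 CPM, and H2-DMb2, of antigen presentation, at 70.2, 78.7, 24.0 and 45.9 CPM. Among those that overlapped, Xcr1 and Clec9a, of a dendritic subset, were at 0 to 4.28 CPM in the first 3 libraries and at 24.7 and 17.8 CPM in NdpKO library 2. The macrophage list summed to 3229, 1753, 3460 and 4108 CPM and the erythroid list to 13206, 18480, 27859 and 6661 CPM. The part of these differences in the member values was not tested.

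In macrophages 1 member rose. Ly6e was at 278, 271, 461 and 520 CPM (log2 change 0.84 ± 0.14, edgeR adjusted p = 0.0485), and the call was lost without NdpKO library 1 (adjusted p = 0.365), without NdpKO library 2 (0.309), with RLE scaling (0.0506) and with stricter cell filters (0.0507). Without NdpWT library 1 and without NdpWT library 2, 4 and 3 members were called. Of 35 members tested, 28 were higher, with a median log2 change of 0.18, and 14 had both NdpKO libraries above both NdpWT libraries, against 16.8% of genes. edgeR called 0.104% of 12501 genes. Gbp2, a guanylate-binding protein, was at 4.59, 4.43, 9.85 and 11.5 CPM and Oasl2 at 11.9, 10.3, 19.0 and 20.3 CPM, both without overlap or call. Ifitm3 lay the other way at 452, 430, 261 and 357 CPM (log2 -0.51 ± 0.16), also without a call. Bst2 and Ifitm2, among the members with the most UMIs in macrophages, were at 497, 512, 583 and 566 CPM and at 754, 658, 643 and 597 CPM.

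Mural cells, the pericytes and smooth muscle cells around vessels, showed lower rather than higher levels for most members, and Ifitm1 fell. Ifitm1 (chr7:140967221-140969825) was at 215, 205, 63.9 and 86.4 CPM, so that both knockout libraries were well below both wild-type libraries (log2 change -1.47 ± 0.17, edgeR adjusted p = 0.00408). Iigp1, which rose in endothelium, was at 22.9, 24.1, 6.01 and 7.82 CPM (log2 -1.74 ± 0.33, edgeR adjusted p = 0.107). Ifitm3 was at 588, 598, 390 and 427 CPM (-0.54 ± 0.13), without a call. Bst2, the member with the most UMIs in mural cells, was at 627, 618, 953 and 835 CPM (0.52 ± 0.13) and also missed the threshold, while Ifitm2 was level at 488, 510, 500 and 469 CPM.

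Only 23 members passed the count filter in mural cells, and 7 of them were higher; the median log2 change was -0.30. In 11 both NdpKO libraries lay below both NdpWT libraries, which held for 18.3% of the 10828 genes tested, and 0.0369% of genes were called. A gene could pass the count filter on its NdpWT counts alone, and all 11 had enough counts in both NdpWT libraries. How many of them had enough in both NdpKO libraries was not counted, so the 11 and the median carry that limit. The mural markers also differed by genotype, in both directions. Of the 14 genes of the list, 7 were lower in both NdpKO libraries (Vtn, Kcnj8, Abcc9, Higd1b, Cox4i2, Ndufa4l2 and Des), 5 were higher in both (Acta2, Tagln, Myh11, Notch3 and Cspg4), and Rgs5 and Pdgfrb overlapped. Over all genes tested in mural cells, 18.3% were lower in both and 17.9% were higher in both. Vtn was at 1881, 1379, 627 and 910 CPM, and the smooth muscle gene Acta2 at 8562, 8831, 10853 and 11834 CPM. Rgs5 and Cspg4, which pericytes also express, were at 6552, 5491, 6333 and 4892 CPM and at 230, 256, 277 and 283 CPM. The part of these differences in the fall of Ifitm1 was not tested. The fibroblast list, from cells with 315 to 492 CPM of Ifitm1, summed to 4772, 5204, 3684 and 4404 CPM in mural cells. Without NdpKO library 2, 3 members were called.

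In fibroblasts, the largest of the 5 classes, 0 of the 36 members tested passed the test, as did 0% of 16214 genes. An unadjusted p under 0.05 was found for 1 member and for 5.50% of all genes. DESeq2 called 0 members too. Of the 36, 12 were higher, with a median log2 change of -0.14, and in 9 both NdpKO libraries lay below both NdpWT libraries, against 17.5% of genes. Irf7, the transcription factor that amplifies type I interferon production, had the lowest p-value, at 2.92, 4.69, 2.02 and 2.46 CPM. Ifitm2, Ifitm3 and Ifitm1 had the most UMIs. Ifitm3 was at 510, 692, 383 and 503 CPM, Ifitm2 at 811, 938, 733 and 823 CPM and Ifitm1 at 350, 492, 315 and 467 CPM, with overlap for Ifitm2 and Ifitm1 and none for Ifitm3. None of the 3 genes that rose in endothelium was higher in both NdpKO libraries here. Ifi203 was at 2.06, 2.60, 1.40 and 2.30 CPM (log2 -0.34 ± 0.34) and Iigp1 at 6.12, 7.82, 6.89 and 7.55 CPM, both with overlap. Bst2 was at 43.3, 46.2, 36.1 and 42.0 CPM (log2 -0.20 ± 0.13), lower in both NdpKO libraries without a call.

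The contrast between classes was tested directly, as the difference of genotype effect in 1 fit with the library as a block. The genotype effect was larger in endothelium than in fibroblasts for 9 of 36 members, and 33 of the 36 differences were above 0, with a median of log2 0.74 against 0.05 over all genes. The 9 were Ifi203 (difference 2.02 ± 0.24, edgeR adjusted p = 0.00133), Iigp1 (1.38), Parp14 (1.09), Bst2 (0.95), Xaf1 (0.77), Ly6e (0.77), Ifitm3 (0.74), Ifitm2 (0.73) and Irf1 (0.70), a transcription factor strongly induced by type II interferon. Zbp1 and Oas1a had not passed the count filter in endothelium alone, so their differences rest on few endothelial UMIs. Among all genes, 2.91% of 16069 were called. Bst2 and Ifi203 kept their call without each of the 4 libraries, and the number of calls fell from 9 to 3 without NdpKO library 1 and to 3 without NdpKO library 2.

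It was larger in endothelium than in mural cells for 5 of 33 members: Iigp1 (difference 3.12 ± 0.34, edgeR adjusted p = 0.000106), Ifi203 (1.93), Ly6e (1.17), Ifitm3 (0.80) and Ifitm2 (0.57). Here 28 of the 33 were above 0, the median was 0.80, and 1.33% of 12437 genes were called. Only 23 members had passed the count filter in mural cells alone, the 5 called ones included. The rest of the 33 entered this fit through their endothelial counts, so their differences rest on few mural UMIs. Bst2 was not among them: it was higher by 0.70 in endothelium and by 0.52 in mural cells, and the difference, 0.19 ± 0.11, had an edgeR adjusted p of 0.649. The comparisons with fibroblasts and with mural cells share the endothelial sums.

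For monocyte or dendritic cells against fibroblasts the effect was larger for 5 of 36 members: Parp14 (difference 1.23), Ifi203 (1.11), Bst2 (0.91), Ly6e (0.87) and Ifitm3 (0.87), with edgeR adjusted p-values from 0.00165 to 0.0169, beside 0.557% of 15967 genes. The median difference was 0.70, and 35 of 36 were above 0. Ifi44, Oas1a, Iigp1 and Ifit3b had not passed the count filter in monocyte or dendritic cells alone. Their differences rest on few UMIs of that class. The calls changed with single libraries: 0 were made without NdpWT library 2, 0 without NdpKO library 1 and 3 without NdpWT library 1 (2 larger and 1 smaller in monocyte or dendritic cells), and there were 9 without NdpKO library 2 (8 larger and 1 smaller). Against mural cells 28 of 34 differences were above 0 with a median of 0.60, and edgeR called 0 members and 0% of 11598 genes. The lowest edgeR adjusted p was 0.166, for Ifitm3. Here too, only 23 members had passed the count filter in mural cells alone. The other differences rest on few mural UMIs, and Oas1a was at 0 CPM there. Iigp1 and Oas1a had also not passed the filter in monocyte or dendritic cells.

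**Figure D4:**
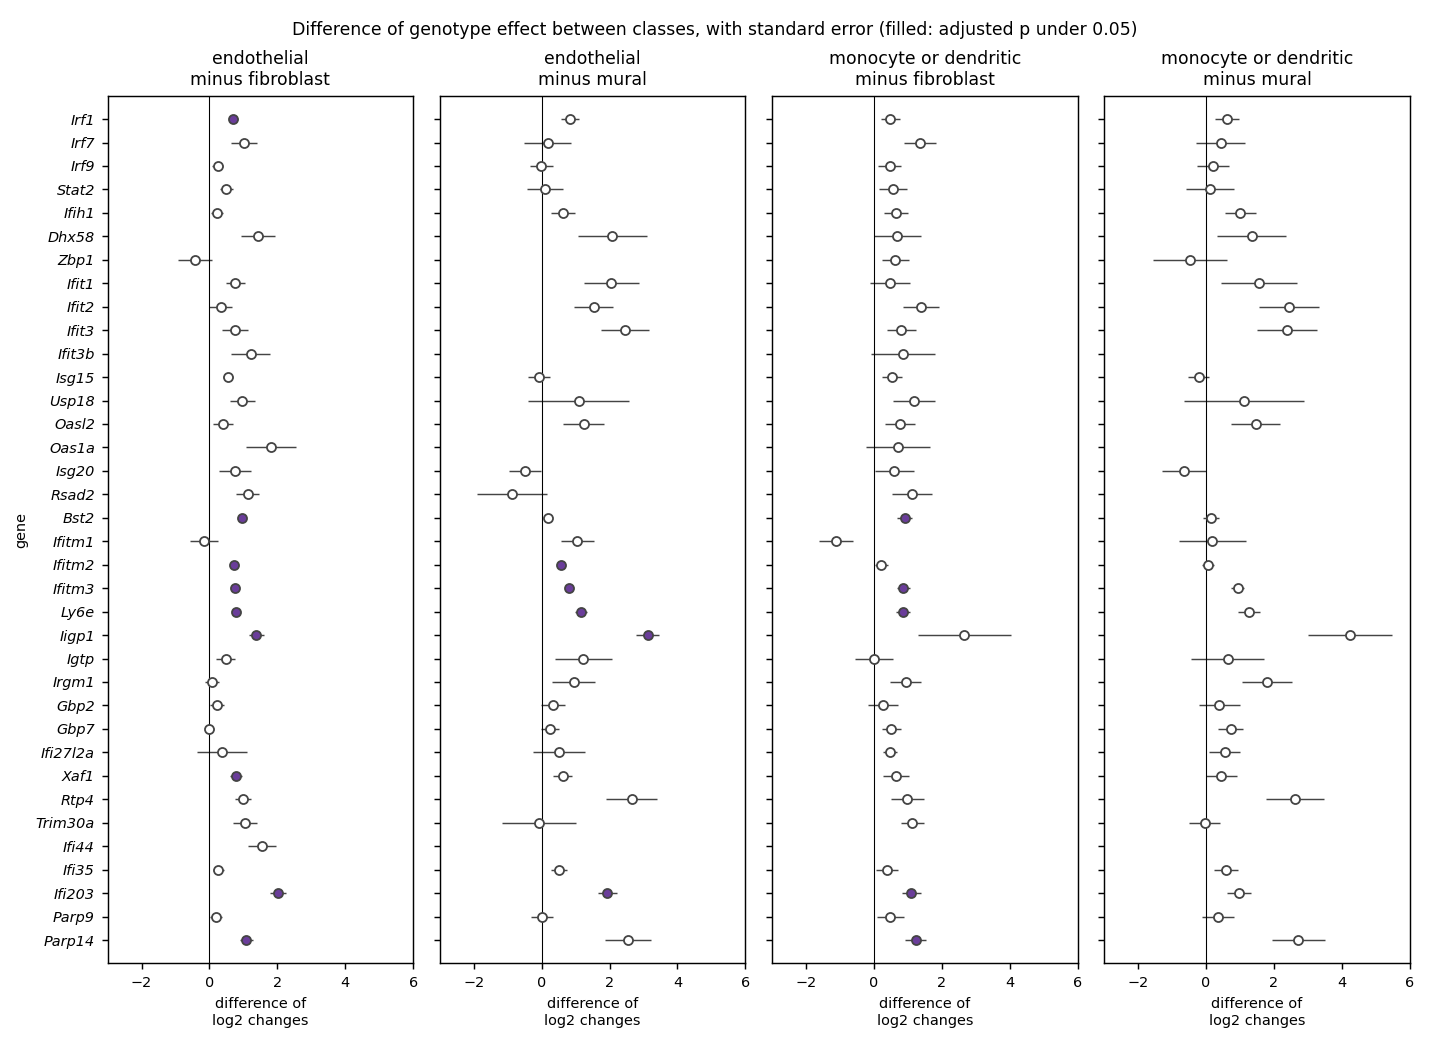
Difference of log2 genotype effect between classes (horizontal axis) for each interferon response gene (rows), with standard errors as bars; filled points have an edgeR adjusted p under 0.05, and values with a standard error over 2 are left out. Most points lie right of 0 in each of the 4 contrasts, with Iigp1 at 3.12 in endothelium minus mural cells.

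The resting level of the members differed between classes by gene. By mean CPM over the 2 NdpWT libraries, 10 of the 36 were highest in monocyte or dendritic cells, 8 in macrophages, 7 in fibroblasts, 6 in endothelium, 3 in mural cells (Bst2, Iigp1 and Ifit2) and 2 in erythroid cells. Isg20, an exonuclease, and Rsad2, viperin, were the 2 of the erythroid cells, Isg20 at 250, 254, 211 and 244 CPM and Rsad2 at 140, 151, 126 and 126 CPM there. The erythroid marker list summed to 9564, 21638, 22044 and 15763 CPM in endothelium, where Isg20 was at 1.59, 11.9, 7.91 and 11.5 CPM; the part of erythroid RNA in that reading was not tested. The summed level of the 36 members was 2666, 2989, 3578 and 4129 CPM in endothelium, 3168, 3600, 4831 and 4084 CPM in monocyte or dendritic cells, 3101, 3048, 3209 and 3389 CPM in macrophages, 2201, 2275, 2150 and 2103 CPM in mural cells and 2141, 2670, 1891 and 2312 CPM in fibroblasts. The genotypes were apart in the first 3 classes with NdpKO higher, apart in mural cells with NdpKO lower, and overlapped in fibroblasts.

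Shares of cells were counted as well. After each cell was thinned to 2000 UMIs, cells with UMIs of at least 3 different members made up 53.4% and 65.1% of endothelial cells in NdpWT and 80.1% and 86.0% in NdpKO. The 95% exact binomial intervals, which cover counting error only, were 46.6% to 60.1% and 82.4% to 89.2% for the lowest and the highest of these. The Eln and Fbln5 cluster, with the higher summed member level, held 25.0% and 28.1% of endothelial cells in NdpWT and 44.6% and 34.6% in NdpKO. The part of this cluster make-up in the endothelial shares was not tested. The shares in mural cells, 48.9%, 52.1%, 51.5% and 38.5%, and in fibroblasts, 46.1%, 57.2%, 45.2% and 53.6%, overlapped between genotypes, and so did those in monocyte or dendritic cells at 81.8%, 77.6%, 86.3% and 80.7%. In macrophages the shares were 71.7%, 73.7%, 75.6% and 81.5%. In the granule neuron lineage, taken as the background class, the share was 1.50% to 3.49% after thinning and 21.3% to 38.1% without it, at medians of 6820 to 11357 UMIs per cell. This share rests mostly on the membrane restriction factors, which have the most UMIs. Without Bst2, Ly6e and the 3 Ifitm genes, cells with at least 3 different members were 7.24%, 12.1%, 13.9% and 22.7% of endothelial cells at 2000 UMIs, still higher in both NdpKO libraries, against 0.041% to 0.23% of granule neurons. Thinned to 1000 UMIs they were 2.57%, 3.59%, 2.55% and 6.65%, with overlap between genotypes. Cells with at least 1 UMI of Isg15 or an Ifit gene were 13.6%, 14.4%, 15.1% and 21.5% of endothelial cells, against 1.38% to 3.28% of granule neurons. Thinning left out 51, 215, 63 and 89 endothelial cells with fewer UMIs. Without it, the share with at least 3 members was 78.3%, 85.9%, 87.9% and 93.5%, at medians of 8894.5, 6840, 15312 and 8736.5 UMIs per endothelial cell. With 2 libraries against 2 an exact permutation test cannot go below p = 0.333, so no p is given for these shares.

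**Figure D5:**
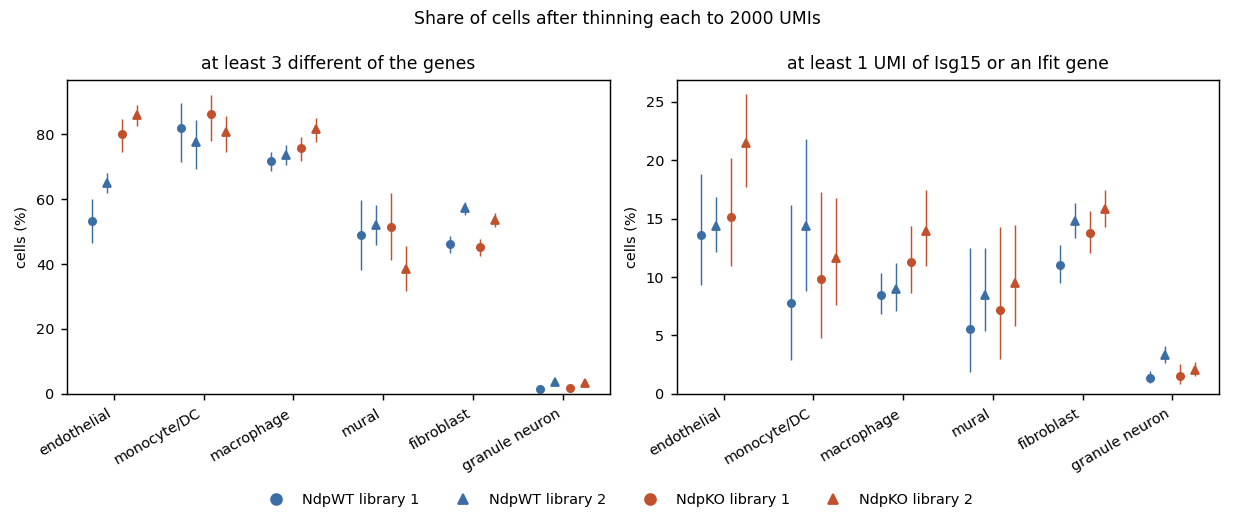
Percent of cells with UMIs of at least 3 different interferon response genes (left) and with at least 1 UMI of Isg15 or an Ifit gene (right), by class and library after thinning to 2000 UMIs; bars are 95% exact binomial intervals. The left panel shows endothelial NdpKO libraries at 80.1% and 86.0% above NdpWT libraries at 53.4% and 65.1%, and granule neurons near the floor.

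Other genes of the pathway were read from fixed lists. None of 12 interferon ligand genes had enough counts to be tested in any of the 5 classes. Of 10 receptors and kinases, 9 were tested in endothelium and 1 fell: Jak2, a kinase that serves the type II receptor, was at 50.1, 43.2, 28.3 and 27.7 CPM (log2 change -0.73 ± 0.16, edgeR adjusted p = 0.0421). Ifnar1 was at 147, 119, 92.6 and 85.6 CPM in endothelium (log2 -0.57 ± 0.14, edgeR adjusted p = 0.0742), lower in both knockout libraries without a call. Ifnar2 was at 151, 156, 120 and 143 CPM, Ifngr1 at 89.4, 93.1, 113 and 118 CPM and Ifngr2 at 51.4, 45.9, 49.8 and 48.7 CPM there, and 0 of these passed the test in any of the 5 classes. In monocyte or dendritic cells Ifngr1 was at 352, 308, 518 and 431 CPM, without overlap.

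Of 52 further interferon-induced genes, 36 were tested in endothelium, 28 were higher and 1 rose: Phf11d, a PHD finger protein, went from 4.12 and 7.65 CPM to 17.8 and 17.2 CPM (log2 1.46 ± 0.28, edgeR adjusted p = 0.0233). In the Cldn5 and Ctla2a cluster Phf11d (log2 3.43) and Ifi47, a GTPase (log2 1.73, from 3.99 and 4.34 to 13.9 and 14.3 CPM), both rose. The median of this list was 0.22 in endothelium, 0.48 in monocyte or dendritic cells with 30 of 32 higher, 0.28 in macrophages with 35 of 42 higher, -0.0035 in mural cells with 8 of 16 higher and 0.09 in fibroblasts with 24 of 40 higher, and 0 genes of it passed the test in the last 4. Of 8 negative regulators, 5 of 8 tested were higher in endothelium, and 4 of 11 tested upstream sensors and activators, with 0 calls in both lists. In monocyte or dendritic cells 6 of 8 and 11 of 12 were higher, with medians of log2 0.08 and 0.47. There 7 of 9 receptors and kinases were higher too, with 0 calls in these 3 lists. Upstream sensors and activators were higher for 10 of 14 in macrophages, 6 of 9 in mural cells and 9 of 13 in fibroblasts.

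In the cycling, erythroid, granule neuron and other neuron classes, 0 members passed edgeR's test, and 0% of all genes did. Of the members tested there, 14 of 24, 11 of 23, 11 of 24 and 2 of 4 were higher. Ifi203 in the granule neuron lineage had an edgeR log2 difference of 0.76 ± 0.16 and no call.

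Several members share sequence near the 3' end, where the tags are read. Of the 50-base stretches in the last 500 bases of each member's coding transcripts in GENCODE M21, 56.1% of those of Oas1a occur in Oas1g, 14.9% of those of Ifit3 in Ifit3b, and 41.9% of those of Ifitm2, 14.0% of Ifitm3 and 11.8% of Ifitm1 in other genes, so their counts are less certain. For Ifi203 the share was 1.11%, and for Bst2, Ly6e, Iigp1 and Parp14 it was 0%.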

How the data were processed

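The authors' deposited values are raw UMI counts per gene and barcode, 1 sparse matrix for each of the 4 libraries, with no normalisation. The submitters' processing notes name Cell Ranger 6.1.2 as the tool and mm10 as the build. Barcodes under 500 genes, under 1000 UMIs or over 10% mitochondrial UMIs were dropped, as were doublets called from scrublet scores. Cells were clustered with scanpy 1.11.5 (2000 variable genes, 30 components, 20 neighbours, Leiden resolution 1). A cluster was named where at least 3 of a class's markers were among its 50 leading genes and no other class had more among its 10 leading genes; members were not removed from the clustering genes. Doublets that remained can carry a member's UMIs from 1 class to another.

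Counts were summed per library and class and tested with edgeR 4.0.16 (quasi-likelihood, TMM, filterByExpr minimum count 10, Benjamini-Hochberg over all genes tested, threshold 0.05). Differences between classes used 1 fit of both classes with the library as a block. The labels name no separate animals behind a library, so the replicates of each test were pooled libraries. edgeR shares its estimates of spread over genes, so a p-value does not rest on a gene's own spread between libraries alone. Alternatives were DESeq2 1.42.0, RLE factors, no count filter, stricter cell filters (1000 genes, 2000 UMIs, 5%), Leiden resolution 0.5, leaving out each library, a replicate block, and endothelial cells without 3 or more macrophage UMIs; the separate endothelial clusters were added after seeing the data.

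Values are given for members with an adjusted p under 0.05 in any class or contrast. They are also given for the 10 of lowest p in endothelial and in monocyte or dendritic cells, and for the 3 of highest CPM in each class. A few others (Isg15, Gbp7, Isg20, Rsad2, Zbp1, Oas1a, Gbp2, Oasl2, Irf7, Ifih1 and Ifitm1 outside mural cells) were chosen after their values were seen. The members, lists and tests were chosen with earlier results of these data known. Positions are from GENCODE M21 on GRCm38, the assembly of mm10, and promoters from RefSeq on GRCm38.p6. The scripts were tested on simulated data.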

Additional observations from a re-analysis of the deposited data

Results flagged for a closer look

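The results listed here are members whose genotype effect differed between cell classes by a test of the difference itself (edgeR's quasi-likelihood test with the library as a block, Benjamini-Hochberg adjusted p under 0.05, 2 NdpWT and 2 NdpKO libraries); all values are differences of log2 effects. For endothelium minus fibroblasts the values were 2.02 for Ifi203, 1.38 for Iigp1, 1.09 for Parp14, 0.95 for Bst2, 0.77 for Xaf1, 0.77 for Ly6e, 0.74 for Ifitm3, 0.73 for Ifitm2 and 0.70 for Irf1. For endothelium minus mural cells they were 3.12 for Iigp1, 1.93 for Ifi203, 1.17 for Ly6e, 0.80 for Ifitm3 and 0.57 for Ifitm2. For monocyte or dendritic cells minus fibroblasts they were 1.23 for Parp14, 1.11 for Ifi203, 0.91 for Bst2, 0.87 for Ly6e and 0.87 for Ifitm3.

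Between the endothelial clusters, Cldn5 and Ctla2a minus Eln and Fbln5, the values were 2.46 for Ifi203, 2.12 for Iigp1, 1.13 for Ifitm2, 0.99 for Isg15, 0.97 for Bst2, 0.49 for Ly6e and -3.13 for Ifi27l2a. With 2 libraries a group, a single library that stands far from the others of its group could not be tested for.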

How the results depend on the processing

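The number of members called in endothelium was 3, and it was 5 with DESeq2, 6 with no count filter, 1 without cells with macrophage UMIs, 6 in the Cldn5 and Ctla2a cluster alone and 0 in the Eln and Fbln5 cluster alone, where Iigp1 turned to log2 -0.037; it ran from 2 to 7 over the libraries left out. In macrophages the count of 1 became 0 with RLE factors, 0 with stricter cell filters and 3 with no count filter, and 0 to 4 with a library left out. In mural cells the count of 1 became 4 with no count filter, and 1 to 3 with a library left out. In monocyte or dendritic cells the count of 0 ran from 0 to 6 with a library left out, and in fibroblasts it was 0 under every alternative run. For the differences between classes, endothelium minus fibroblasts ran from 3 to 11 with a library left out; endothelium minus mural cells gave 9 with no count filter; monocyte or dendritic cells minus fibroblasts gave 2 with RLE factors, 0 with stricter cell filters and 0 to 9 with a library left out; monocyte or dendritic minus mural cells gave 3 with no count filter and 0 to 4 with a library left out; and the difference between endothelial clusters ran from 2 to 6. Calls over all genes changed too. In endothelium they were 283 of 12675 in the main fit, 278 with DESeq2, 745 of 20337 with no count filter and 69 of 10021 without cells with macrophage UMIs. In macrophages 13 of 12501 became 2 with RLE factors, 3 of 12247 with stricter cell filters and 84 of 19979 with no count filter. In mural cells 4 of 10828 became 118 of 18233 with no count filter. The causes of these changes were not tested, and some of those fits used fewer cells or libraries. Thinned to 1000 in place of 2000 UMIs, the knockout minus wild-type difference in cells with Isg15 or Ifit UMIs moved from -0.397 to 3.35 percentage points in monocyte or dendritic cells, from 3.89 to 1.65 in macrophages and from 1.37 to -2.54 in mural cells, and the difference in cells with at least 3 members moved from 3.77 to 10.1 in monocyte or dendritic cells.

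With the replicate number as a block, 8 members were called in endothelium, all higher, 3 in monocyte or dendritic cells (2 higher and 1 lower) and 4 in mural cells (1 higher and 3 lower). The member counts of macrophages and fibroblasts did not change. Calls over all genes also rose with this block. They went from 283 to 701 of 12675 in endothelium, from 0 to 78 of 9193 in monocyte or dendritic cells and from 4 to 165 of 10828 in mural cells. In macrophages they went from 13 to 29 of 12501 and in fibroblasts from 0 to 277 of 16214. The labels match runs by litter without saying that the number marks the match, and the correlation of same-numbered libraries' deviations was between -0.039 and 0.380 over the 9 classes. The classes with 0 calls held 82 to 212 (monocyte or dendritic) and 1613 to 2671 (fibroblast) cells a library, and the part of depth in their counts was not tested.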
